A study of Mus musculus with 35 samples.

Results

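The genes described here encode the nuclear-encoded parts of the mitochondrial respiratory chain and of ATP synthase. They were chosen by symbol alone: every gene of the induction table whose name begins with Nduf, Uqcr, Sdh or Atp5, or with Cox and a number from 4 to 8, with symbols marked -ps left out. This gave 101 genes of 44853, of which 9 were also among the 6275 genes of a second, siRNA table. No measured value entered the choice. By their known roles they comprised 7 core, 29 accessory and 8 assembly genes of complex I, 4 subunit and 4 assembly genes of complex II, 8 genes of complex III, 12 of complex IV, 17 of ATP synthase (complex V) and 10 alternative, tissue-restricted or copied forms, with Ndufa11b and Ndufs6b left over. These 2, and Ndufb4c and Cox6c2 among the 10, are annotated as processed pseudogenes.

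The respiratory chain passes electrons from NADH (at complex I) and from succinate (at complex II) through complex III to oxygen at complex IV. Complexes I, III and IV pump protons, and ATP synthase uses the proton gradient to make ATP. Complexes I, III, IV and V also need subunits encoded by mitochondrial DNA. These could not be analysed here, since of 13 such genes looked for 0 had values in the induction series. Assembly factors help to build the complexes without being part of the finished enzyme. Several small subunits of complex IV come in a widely used form and an alternative form used in muscle, testis or cells short of oxygen. Embryonic stem (ES) cells are known for their reliance on glycolysis beside respiration.

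The cells were KH2 ES cells of C57BL/6 x 129/Sv background with a Gata6 transgene switched on by doxycycline (Dox), grown in serum with LIF on inactivated embryonic fibroblast feeders. GATA6 is the transcription factor that directs cells to primitive endoderm, the precursor of the yolk sac. Poly(A) RNA came from cells without Dox (0 h) and from cells kept in 1 µg/mL Dox for 16, 24, 48, 72, 96 or 168 h. Each time had 3 libraries, 21 in all with the same transgene. XEN cells, an endoderm stem cell line taken here as 2 libraries of wild-type X10 cells of CD1 strain grown without LIF, formed the eighth group. In the siRNA experiment the Gata6 cells of clone G6.3 received Dox for 48 h with a control siRNA (siCTL) or an siRNA against Oct4 (siOct4), 6 libraries each. The transgenic lines were picked as clones, so clone and transgene cannot be told apart. For XEN cells, neither can strain, line, medium and absence of Dox. Every induced group received Dox and the 0 h cells did not, and no group had Dox without the transgene. Effects of the drug and of GATA6 therefore cannot be told apart. Values are TPM, a transcript level corrected for transcript length, and the number of reads behind them is unknown.

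The labels of the 0 h and Dox libraries held up against markers. Gata6 was at most 0.38 TPM at 0 h and at least 122 TPM in every Dox library, and 12 of 12 primitive endoderm markers were higher at 168 h, while 10 of 10 pluripotency markers were lower. In XEN cells against 0 h, 11 of the 12 primitive endoderm markers were higher and 1 was lower (-1.59), and 10 of 10 pluripotency markers were lower. Replicates of an induction group correlated with r between 0.970 and 0.993 over log2(TPM + 1) of the genes tested, and those of the siRNA groups with r from 0.929 (siCTL) and 0.941 (siOct4) upward. The lowest induction value came from the 72 h group, whose replicate 3 stood apart from the other two: the 101 genes summed to 29880, 28393 and 33824 TPM in replicates 1 to 3. The study let feeders settle out before lysis, but 12 fibroblast markers still summed to 57.8 to 132 TPM at 0 h, 159 to 319 TPM at 168 h and 120 to 125 TPM in XEN cells. The defining markers Col1a1, Col1a2 and Col3a1 were among the 8 of 12 fibroblast markers that were higher at 168 h. Dcn and Lum had their lowest 0 h library at 0.122 and 0 TPM. Dcn had a mean of 3.26 TPM and Lum of 4.24 TPM at 168 h. The part of feeder RNA in the differences below was not tested. In bulk RNA, fewer cells of a type and less RNA per cell cannot be told apart.

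The reference sequence before 3 of the genes is shown because they include the strongest early riser (Cox7a1), the widely used complex IV gene with the largest late rise (Cox6a1) and the subunit of ATP synthase with the largest late fall (Atp5g1). Each line is the 250 bases before the RefSeq start on GRCm38.p6, read 5′ to 3′ on the strand of the gene, at chr7:30183921-30184170 (plus strand) for Cox7a1, chr5:115348959-115349208 (minus strand) for Cox6a1 and chr11:96075632-96075881 (minus strand) for Atp5g1. Capitals mark matches on either strand to AGATAA or TGATAA (letters bound by GATA factors), to the 10-base NRF1 palindrome (letters bound by NRF1, a regulator of respiratory genes, and searched without mismatch) and to CCGGAAG (letters bound by ETS factors).
Cox7a1: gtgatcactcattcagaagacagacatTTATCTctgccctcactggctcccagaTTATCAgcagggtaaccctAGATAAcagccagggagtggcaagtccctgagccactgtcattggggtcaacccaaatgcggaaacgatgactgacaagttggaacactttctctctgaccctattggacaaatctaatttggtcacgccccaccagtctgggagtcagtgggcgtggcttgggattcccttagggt
Cox6a1: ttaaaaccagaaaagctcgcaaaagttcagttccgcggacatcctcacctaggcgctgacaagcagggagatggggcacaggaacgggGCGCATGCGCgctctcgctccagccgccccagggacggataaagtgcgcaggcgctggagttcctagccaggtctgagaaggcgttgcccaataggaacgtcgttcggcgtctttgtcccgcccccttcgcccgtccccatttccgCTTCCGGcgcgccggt
Atp5g1: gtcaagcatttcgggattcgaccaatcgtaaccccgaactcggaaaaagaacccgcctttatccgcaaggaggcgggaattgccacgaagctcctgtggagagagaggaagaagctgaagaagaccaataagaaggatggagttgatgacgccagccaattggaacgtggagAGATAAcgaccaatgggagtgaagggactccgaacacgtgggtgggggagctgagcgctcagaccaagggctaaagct
The Cox7a1 window held 3 GATA matches, which began at -223, -196 and -177 from the start, and 0 of the other motifs. The Cox6a1 window held an NRF1 match at -162 and an ETS match at -16, and the Atp5g1 window a single GATA match at -78. Over the full 300-base RefSeq windows, which run to 50 bases past the start, 80 of the 101 genes had a promoter entry under their symbol. A GATA match was present in 16.2% of these 80 and in 19.0% of all 27025 promoters. The NRF1 letters were present in 8.8% against 1.0%, and the ETS letters in 26.2% against 9.1%. A match describes the letters only and is no evidence of binding.

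As a group the respiratory chain genes were abundant and changed little in sum. They made up 3.47% of all TPM at 0 h (34736 ± 185, SD, n = 3), 3.07% at 72 h (30699 ± 2807), 3.33% at 168 h (33307 ± 989) and 3.74% in XEN cells (37351 ± 84.1, n = 2). The 72 h sum was low in replicates 1 and 2 and within the range of other groups in replicate 3. Of the 101 genes, 96 had a mean of at least 1 TPM in some group and were tested. The other 5 (Cox6a2, Cox8b, Cox8c, Ndufa11b and Ndufs6b) did not exceed 1.34 TPM in any library.

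**Figure D1:**
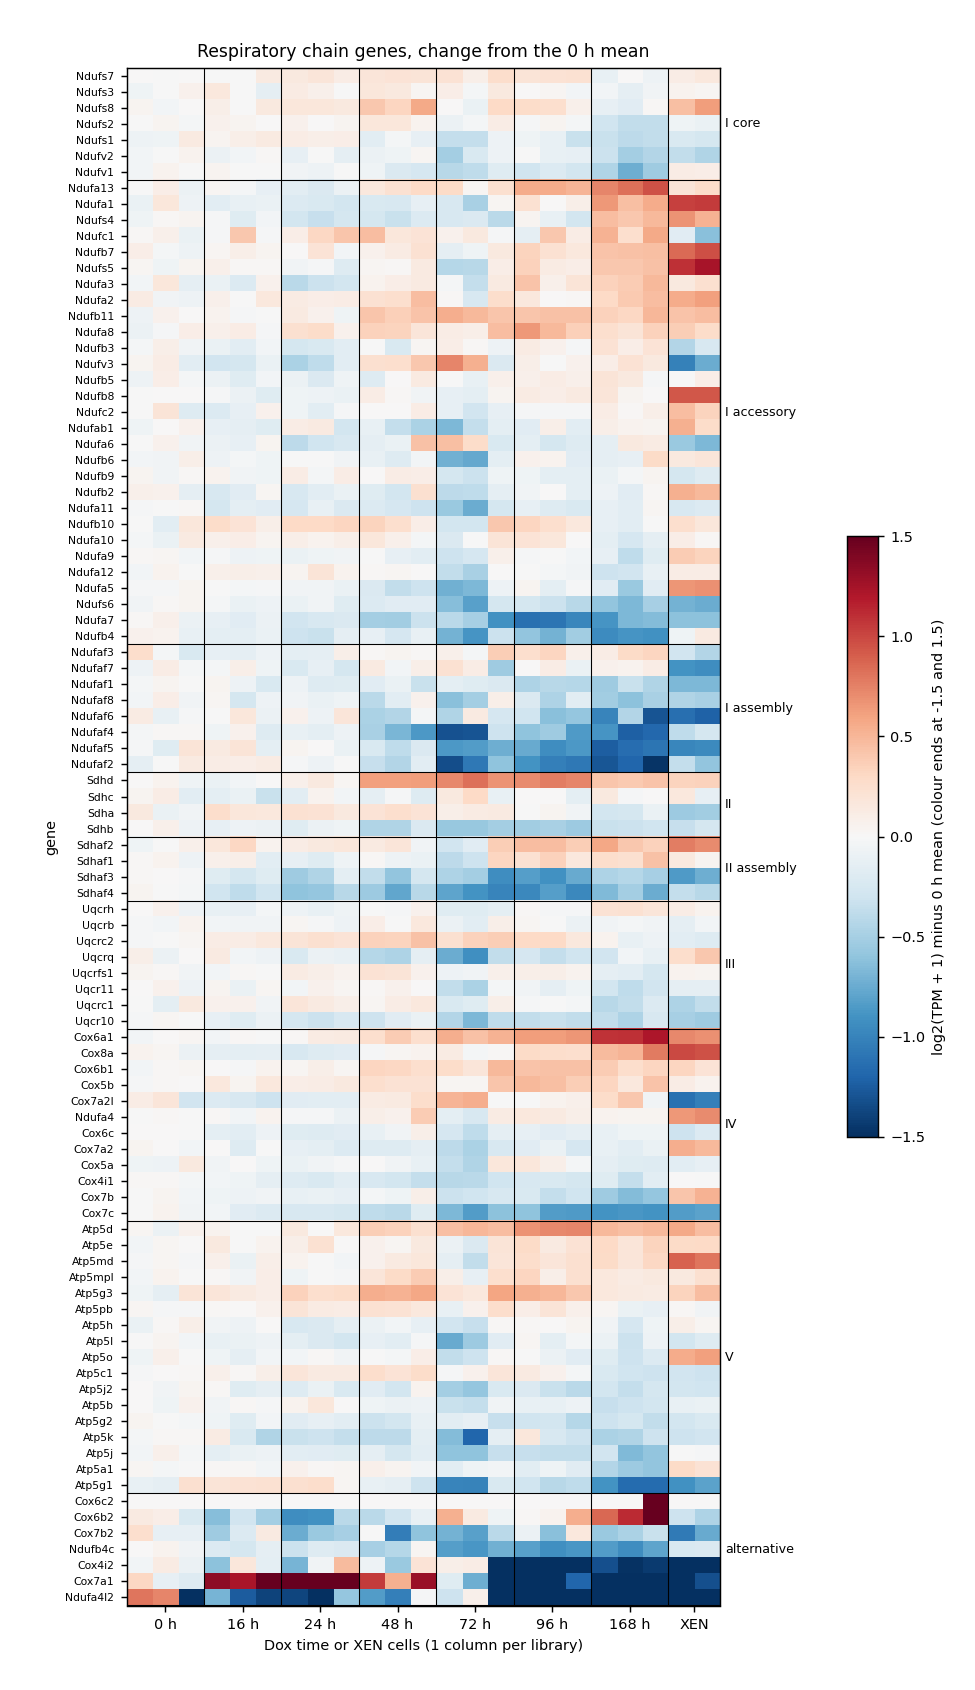
Change in log2(TPM + 1) from the 0 h mean for the 96 tested genes (rows, grouped by complex and ordered by the 168 h change) in each of the 23 induction libraries (columns). Most cells are pale, the complex I assembly group turns blue from 72 h, and the alternative forms at the bottom carry the darkest colours.

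Calls were made with limma over all 15057 genes tested, at an adjusted p below 0.05 and any size of change. At 16 h, 2 of 96 genes were higher and 1 was lower (7.91% and 5.03% of all genes tested were called in those directions). At 24 h, 5 were higher and 11 lower (background 16.7% and 11.8%). These early totals of 3 and 16 rested on few libraries. Without replicate 2 of 0 h or of 16 h the 16 h total was 1. The 24 h total was 10 without replicate 1 of 0 h, 7 without its replicate 2 and 8 without replicate 1 or 2 of 24 h. With only the compared groups in the fit the totals were 5 and 33. At 48 h, 19 were higher and 19 lower (27.7% and 26.1%). At 72 h, 10 were higher and 44 lower (33.9% and 31.6%), and without replicate 3 of the 72 h group 11 and 53. At 96 h, 17 were higher and 28 lower (34.5% and 32.9%). At 168 h, 23 were higher and 39 lower (41.1% and 33.9%). The share of respiratory chain genes called higher was thus below that of all genes at every time, and the share called lower was above it at 72 h and 168 h (45.8% and 40.6%). Changes were small. Genes called and past 2-fold numbered 1 higher and 0 lower at 16 h (background 1.97% and 0.804%), 1 and 0 at 24 h (3.24% and 2.44%), 0 and 0 at 48 h (9.14% and 7.26%), 0 and 1 at 72 h (14.7% and 11.5%), 0 and 4 at 96 h (15.4% and 14.1%) and 2 and 7 at 168 h (22.6% and 16.5%). The median log2 change of the 96 genes was -0.18 at 72 h and -0.10 at 168 h, beside 0.02 and 0.09 over all genes.

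The balance of rises and falls depended on how libraries were scaled to each other. The respiratory chain genes are short, with a median of 1569 exonic bases against 3962 for all genes tested, and short genes as a class had lower TPM than long ones as induction went on (by -0.27 in log2 by 72 h, -0.59 by 168 h and -0.43 in XEN cells, relative to 0 h). When libraries were rescaled by the median of ratios, which moved the median of all genes at 168 h from 0.09 to -0.05, the 168 h counts became 10 higher and 55 lower (10.4% and 57.3%, against 35.8% and 39.1% of all genes). When the length trend was removed instead they became 36 and 31 (37.5% and 32.3%), near the 41.4% and 33.2% of all genes. Across the deposited values, either change and both together, 10 genes were called higher and 30 lower every time at 168 h (10.4% and 31.2%, against 34.2% and 31.6% of all genes). The same counts were 6 and 34 for 72 h (6.25% and 35.4%, against 30.3% and 30.4%), and 11 and 21 for 96 h (11.5% and 21.9%, against 31.4% and 31.3%). Under this stricter reading the share lower at 168 h was thus near that of all genes, and the share higher was below it. Differences named below as holding under all 4 scalings belong to these counts.

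**Figure D2:**
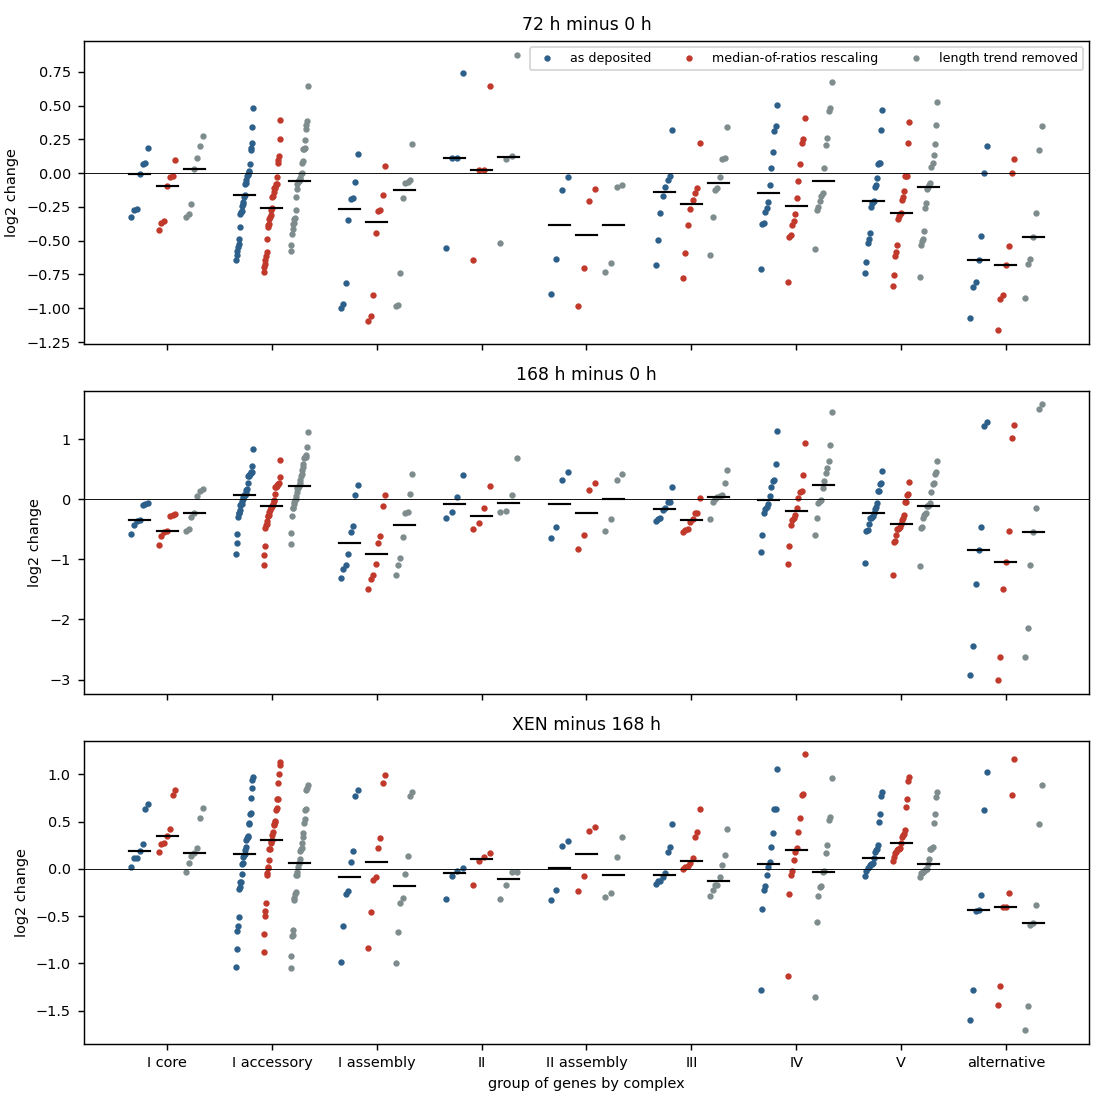
Log2 changes of the tested genes by complex at 72 h and 168 h against 0 h and in XEN cells against 168 h, with deposited TPM (blue), median-of-ratios rescaling (red) and the length trend removed (grey), and bars at medians. Rescaling and the length correction shift whole groups in opposite directions, while the median of the complex I assembly group stays below 0 at 72 h and 168 h under each.

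Complex I, the NADH-oxidising entry point, differed between its parts. Of 7 core genes, which carry the flavin and iron-sulfur clusters, 0 were higher and 4 lower at 168 h (median log2 -0.34). These are 0% and 57.1% of the core genes, against 41.1% and 33.9% of all genes tested. Ndufv1, which binds the flavin, had 121, 129 and 125 TPM at 0 h and 91.1, 74.7 and 85.9 TPM at 168 h, so the libraries did not overlap. The difference was -0.57 in log2 (SE 0.07, limma adjusted p = 7.62e-07), and Ndufv1 was at 135 and 134 TPM in XEN cells. Ndufv2 (-0.43) and Ndufs1 (-0.37), which carry iron-sulfur clusters of the same arm, were also lower under all 4 scalings. Ndufs7, the most abundant core gene, stayed between 141 and 171 TPM as group means and was called higher at 48, 72 and 96 h by about 0.20 (0.20, 0.19 and 0.21) but not at 168 h as deposited, where it was called higher (0.13) with the length trend removed.

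Of the 29 accessory genes, which surround the core, 11 were higher and 6 lower at 168 h (37.9% and 20.7%, against 41.1% and 33.9% of all genes). Ndufa13, also known as GRIM19, had 68.5, 73.6 and 64.5 TPM at 0 h, 101, 101 and 98.5 TPM at 96 h and 115, 123 and 134 TPM at 168 h. It rose by 0.84 in log2 by 168 h (SE 0.07, limma adjusted p = 5.24e-09) and was at 78.5 and 83.6 TPM in XEN cells. Ndufa1, an X-linked membrane subunit, rose by 0.55 and Ndufs4, needed for the stability of the NADH-oxidising arm, by 0.45, both under all 4 scalings. Ndufs4 went the other way earlier, with log2 changes of -0.30, -0.27 and -0.29 at 24, 48 and 72 h. Ndufa7 was the most abundant accessory gene, with 810, 846 and 752 TPM at 0 h, and it fell to 370, 376 and 407 TPM at 96 h. This was a log2 difference of -1.06 (SE 0.10, limma adjusted p = 1.27e-08), and at 168 h Ndufa7 was at 435, 503 and 509 TPM (-0.73). Ndufs6 fell by 0.59 at 168 h. Ndufb4 fell by 0.91 and its copy Ndufb4c, an annotated processed pseudogene, by 0.85, but their transcripts are near-identical and Ndufb4c took 87.0% of their joint TPM at 0 h, so only their common fall can be read.

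The assembly factors of complex I leaned to 1 side. By 168 h a fall was called in 6 of the 8 (75.0%) and a rise in 0, with a median log2 change of -0.72. Over all genes tested, falls made up 33.9% and rises 41.1%. Under all 4 scalings 5 of these falls held, beside 31.6% falling and 34.2% rising over all genes. The summed TPM of the 8 went from 280 ± 5.83 without Dox to 238 ± 14.4 at 48 h. It reached 174 ± 7.83 at the last time (SD, n = 3). Ndufaf2, which binds a late assembly intermediate, had 74.9, 82.2 and 90.6 TPM at 0 h, 32.2, 38.6 and 53.8 TPM at 72 h and 33.3, 35.5 and 29.0 TPM at 168 h. It fell by 1.31 in log2 (SE 0.13, limma adjusted p = 2.76e-08). Ndufaf5, which modifies a core subunit, went from 19.3, 17.1 and 22.4 TPM to 7.68, 8.23 and 8.60 TPM at 168 h, a fall of 1.16 (SE 0.10, limma adjusted p = 3.33e-09). Ndufaf4, an early-acting factor, went from 20.9, 21.5 and 21.5 TPM to 11.1, 8.54 and 8.85 TPM, a fall of 1.10 (SE 0.19, limma adjusted p = 3.02e-05). In all 3 genes the 0 h and 168 h libraries did not overlap and the fall held under all 4 scalings. In XEN cells Ndufaf5 had 9.36 and 9.59 TPM, above the 168 h libraries but not called different from them (0.19), whereas Ndufaf2 (63.9 and 54.4 TPM) and Ndufaf4 (16.1 and 17.5 TPM) were higher than at 168 h by 0.84 and 0.77 in log2. Ndufaf6 was lower both at 168 h (-0.91) and in XEN cells (-1.17, SE 0.20, limma adjusted p = 3.56e-05).

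**Figure D3:**
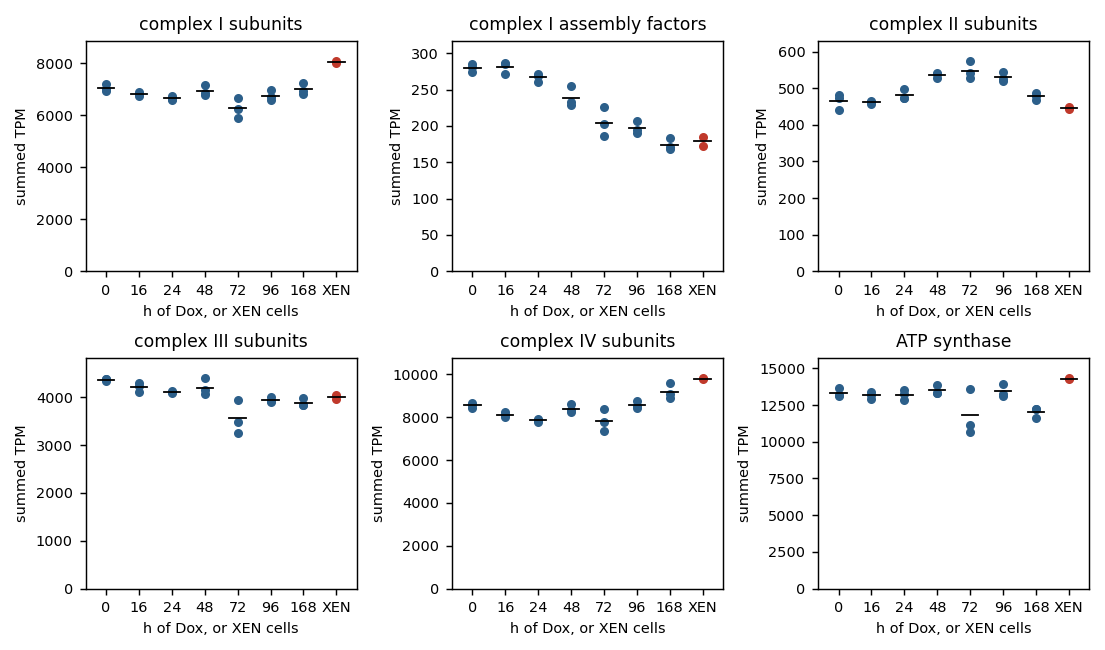
Summed TPM of the genes of each complex per library (points, with bars at group means) over Dox time and in XEN cells, with all vertical axes starting at 0. The mean complex I assembly sum goes down at each time from 24 h to 168 h, the other sums move both up and down, and the 72 h points are spread wide for complex III and ATP synthase.

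Complex II oxidises succinate and belongs to the citric acid cycle as well as to the chain. Sdhd, one of its membrane anchors, had 153, 158 and 146 TPM at 0 h and 234, 234 and 236 TPM at 48 h, and it stayed at 242 TPM or above in the 72 h and 96 h libraries. By 48 h this was a rise of 0.62 in log2 (SE 0.05, limma adjusted p = 7.20e-09) and by 168 h one of 0.41, both under all 4 scalings. The other anchor, Sdhc, was not called in any comparison. The iron-sulfur subunit Sdhb moved the other way, from 114, 120 and 108 TPM at 0 h to 76.3, 76.3 and 79.8 TPM at 72 h (-0.55, SE 0.06, limma adjusted p = 2.42e-07), and was still lower at 168 h (-0.32). The flavoprotein subunit Sdha was higher by 0.20 at 16 h and by 0.22 at 48 h, and lower by 0.21 at 168 h and by 0.54 in XEN cells. The subunits of this complex thus did not share a course. Among the assembly factors, Sdhaf4, which helps to join Sdha with Sdhb, fell from 16 h on (-0.33 by 16 h, -0.92 by 96 h and -0.64 by 168 h), and Sdhaf3, which protects the clusters of Sdhb, fell at 24 h and later (-0.46 at 168 h) from 2.98, 2.93 and 2.86 TPM at 0 h. Sdhaf2, which attaches the flavin to Sdha, rose by 0.45 and Sdhaf1 by 0.32 at 168 h, and neither call held under all 4 scalings.

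Complex III, which passes electrons on to cytochrome c, changed by little at 168 h. Of 8 genes, 1 was higher and 4 lower at 168 h, with log2 changes between -0.36 and 0.21. Uqcr10, its most abundant gene, went from 1223, 1264 and 1240 TPM at 0 h to 964, 902 and 1050 TPM at 168 h (-0.36), and Uqcrc1, a core protein, fell by 0.33. Only the Uqcrc1 fall held under all 4 scalings among the calls of complex III at 168 h. Uqcrh, the hinge protein near the cytochrome c site, was called lower at 72 h and rose by 0.21 at 168 h as deposited. Uqcr11 fell by 0.31 as deposited, and its change was 0.00 with the length trend removed.

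Complex IV, which reduces oxygen, had subunits with large and opposed changes. Cox6a1, the widely used form of subunit 6A, had 839, 865 and 881 TPM at 0 h, 1027, 1124 and 1028 TPM at 48 h, 1330, 1333 and 1365 TPM at 96 h and 1820, 1841 and 1999 TPM at 168 h. Each time from 48 h on lay above all 0 h libraries. The rise by 168 h was 1.13 in log2 (SE 0.05, limma adjusted p = 1.61e-13), and XEN cells had 1425 and 1381 TPM (0.70 above 0 h). Cox8a, another small subunit, rose by 0.59 to 1450, 1480 and 1780 TPM at 168 h and stood at 2067 and 2010 TPM in XEN cells. Cox6b1 rose by 0.30 at 48 h and 0.32 at 168 h, and the latter call was lost under at least 1 scaling. Cox7c fell in the opposite direction, from 1552, 1624 and 1508 TPM to 839, 854 and 839 TPM (-0.89, SE 0.07, limma adjusted p = 1.45e-09), and was at 876 and 892 TPM in XEN cells. Cox7b fell by 0.59 to 227, 208 and 220 TPM. The large regulatory subunit Cox4i1 fell by 0.24, but was called lower at 168 h under some scalings only. In sum the 12 genes went from 8556 ± 109 TPM at 0 h to 9187 ± 351 TPM at 168 h (SD, n = 3), so the opposed courses nearly cancelled.

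ATP synthase genes leaned lower, with 3 higher and 8 lower of 17 at 168 h (17.6% and 47.1%, against 41.1% and 33.9% of all genes). Its ring subunit c is made from Atp5g1, Atp5g2 and Atp5g3, which encode the same mature protein behind different targeting sequences. Atp5g1 had 441, 434 and 559 TPM at 0 h and 255, 213 and 213 TPM at 168 h, a fall of 1.07 in log2 (SE 0.15, limma adjusted p = 2.97e-06). At 72 h its replicates 1 and 2 had 238 and 237 TPM and replicate 3 had 406 TPM. Atp5g3 rose first, from 555, 530 and 664 TPM to 844, 832 and 865 TPM at 48 h (0.55, SE 0.09, limma adjusted p = 5.32e-05), and was not called at 168 h, where its change was 0.14 as deposited and -0.05 after rescaling. Atp5g2 fell by 0.31. The highest gene of the whole set was Atp5b, the catalytic beta subunit, with 3049, 2904 and 3197 TPM at 0 h and 2403, 2449 and 2518 TPM at 168 h (-0.31). Atp5a1, the alpha subunit, fell by 0.52 and Atp5j of the peripheral stalk by 0.51, all 3 falls under all 4 scalings. Atp5d of the central stalk rose by 0.47 at 168 h, after 0.71 at 96 h (478, 496 and 500 TPM against 306, 282 and 313 TPM at 0 h). Atp5e rose by 0.27 and Atp5md by 0.26, and these calls did not hold under all 4 scalings.

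The alternative forms moved furthest. Cox7a1, the form of subunit 7A known from heart and skeletal muscle, lies at chr7:30184144-30186078 on the plus strand (mm10). It had 69.0, 50.9 and 48.4 TPM at 0 h, 142, 131 and 168 TPM at 16 h, 182, 175 and 210 TPM at 24 h, 116, 80.6 and 137 TPM at 48 h, 48.5, 32.8 and 17.6 TPM at 72 h, 15.7, 18.7 and 23.8 TPM at 96 h and 10.2, 10.1 and 7.89 TPM at 168 h. All libraries from 16 h to 48 h lay above the 0 h range and all from 96 h on lay below it. By 16 h the log2 rise was 1.38 (SE 0.26, limma adjusted p = 0.00103). By 24 h it had reached 1.75 (limma adjusted p = 4.27e-05, with the same SE). The later fall came to -2.45 by 168 h (limma adjusted p = 6.36e-08). Cox7a1 was the only one of the 96 genes called and past 2-fold at 16 h or 24 h. XEN cells had 18.6 and 21.7 TPM, above all 168 h libraries (1.02), but this call was lost without XEN replicate 2 (0.92, limma adjusted p = 0.0621). Cox7a2, the widely used partner, stayed between 238 and 340 TPM in all 21 Dox and 0 h libraries and was at 482 and 463 TPM in XEN cells. Within that range Cox7a2 was called lower at 48, 72 and 96 h, but not at 168 h as deposited. It had 340, 332 and 321 TPM at 0 h and 253, 238 and 281 TPM at 72 h. The fibroblast marker sum was 106 to 174 TPM at 16 h, 114 to 172 TPM at 24 h and 159 to 319 TPM at 168 h, where Cox7a1 was lowest.

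Cox6b2, the form of subunit 6B known from testis, dipped and then rose. It had 97.5, 94.4 and 75.1 TPM at 0 h, 45.7, 46.8 and 66.5 TPM at 24 h, and 161, 193 and 283 TPM at 168 h. The 24 h dip was -0.75 in log2 (limma adjusted p = 0.00858). The late rise was 1.21 (SE 0.20, limma adjusted p = 2.13e-05), while in XEN cells (70.9 and 64.1 TPM) it was 1.60 below 168 h. The 168 h library with the highest Cox6b2, replicate 3, also had the highest fibroblast marker sum (319 TPM against 160 and 159 TPM), and without that library the rise was 0.99. Its partner Cox6b1 stayed at 484 TPM or above throughout.

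Ndufa4l2, a relative of the complex IV subunit Ndufa4 and a known target of the oxygen-sensing factor HIF1, had 15.8, 15.1 and 2.33 TPM at 0 h, 4.97, 3.06 and 2.69 TPM at 16 h, 2.73, 1.19 and 5.44 TPM at 24 h, 4.40, 3.72 and 8.55 TPM at 48 h, 6.76, 9.14 and 0.223 TPM at 72 h and 0.0814, 0.284 and 0.487 TPM at 168 h. The differences up to 72 h were not called, with overlap between libraries. By 168 h it fell by 2.92 in log2(TPM + 1) (SE 0.65, limma adjusted p = 0.000503) and was at 0.101 and 0 TPM in XEN cells. Cox4i2, the form of subunit 4 used in lung and in cells short of oxygen, had 2.57, 3.01 and 2.48 TPM at 0 h, 2.91, 2.98 and 0.223 TPM at 72 h and 0.478, 0.315 and 0.365 TPM at 168 h (-1.41, SE 0.35, limma adjusted p = 0.00135). Replicate 3 of 72 h thus had both genes at the level of the 96 h libraries, where Ndufa4l2 did not exceed 0.893 TPM and Cox4i2 did not exceed 0.244 TPM. The sum of 12 hypoxia-responsive genes was likewise lowest in replicate 3 of both groups: 1757, 1753 and 1291 TPM in replicates 1 to 3 of 0 h and 3227, 3463 and 1772 TPM in those of 72 h. Sums at different times cannot be read alike, because P4ha1, an enzyme of collagen maturation, went from a mean of 12.4 TPM at 0 h to 1031 TPM at 168 h, and 6 of the 12 genes were not called there. The part of hypoxia in these differences was not tested. Without replicate 3 of 0 h the Ndufa4l2 fall at 168 h was -3.69. Ndufa4 itself stayed at 424 TPM or above in every library.

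The remaining alternative forms were near or below detection. Cox7b2, a testis form, had a mean of 1.10 TPM at 0 h and 0.521 TPM at 168 h (-0.45, limma adjusted p = 0.0897). Cox8c, a testis form of subunit 8, reached 1.34 TPM in replicate 2 of 0 h and was listed at 0 in every library from 72 h on and in XEN cells. The muscle form Cox6a2 did not exceed 0.436 TPM and the muscle form Cox8b did not exceed 0.0406 TPM in any library. Cox6c2 was listed at 0 in 22 of 23 libraries and at 13.3 TPM in replicate 3 of 168 h. Its transcript is near-identical to that of Cox6c, so this single value cannot be assigned between them.

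**Figure D4:**
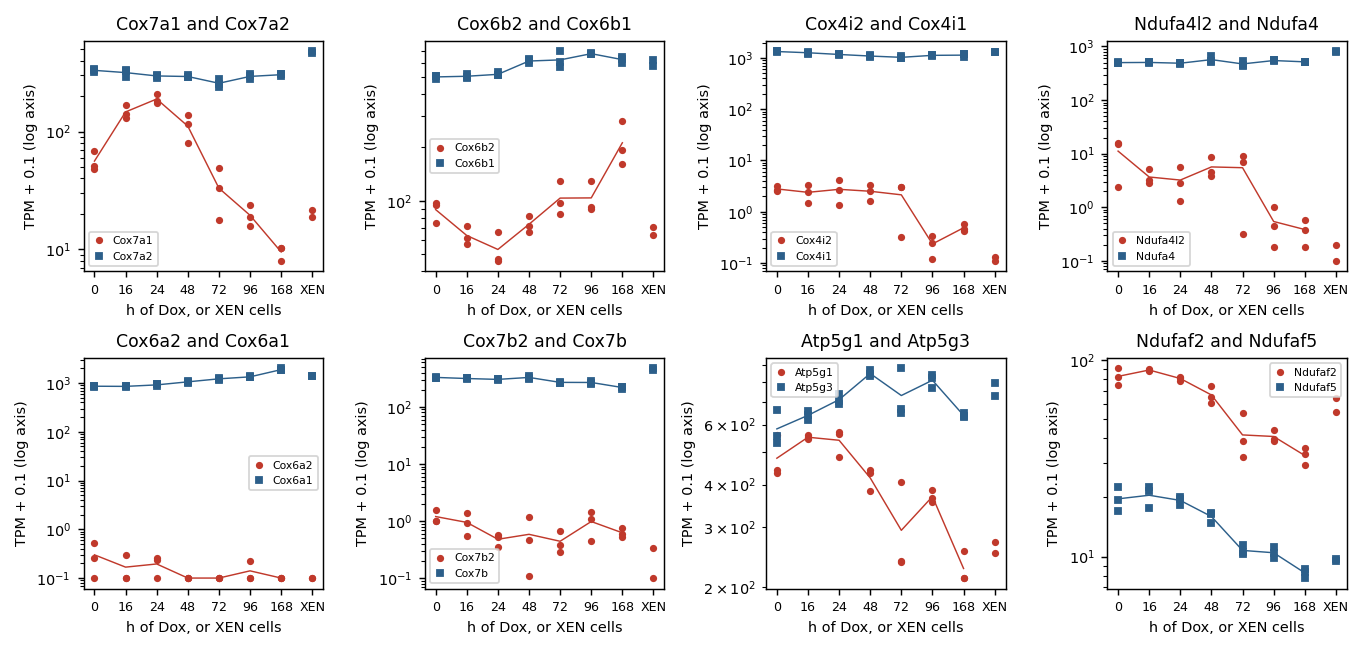
TPM + 0.1 on a log axis for 8 gene pairs, as points per library with lines through the group means over Dox time, and XEN cells at the right. Cox7a1 peaks at 24 h and then falls, Cox6a1 climbs from 48 h while Cox7a2 stays between 238 and 340 TPM up to 168 h, Ndufa4l2 is lower in every library at 16 h and 24 h than in replicates 1 and 2 of 0 h, and both Ndufa4l2 and Cox4i2 are lowest from 96 h on, with 1 low library already at 72 h.

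The genes reached their late levels by different routes. The Sdhaf4 fall was called from 16 h on. Cox7a1 was called higher from 16 h to 48 h and lower from 72 h on. The Sdhd, Sdhb, Cox6a1, Atp5d, Ndufaf4 and Ndufaf5 changes were first called at 48 h, and the falls of Ndufaf2 and Atp5g1 were first called at 72 h. These comparisons share the 0 h libraries, so the values over time are not independent of each other. With 3 libraries against 3, an exact permutation test of a single gene could not go below p = 0.10, which is why only the fit across all genes was used.

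The next comparison asked how induced cells at 168 h stood against XEN cells. Here 32 of 96 genes were higher in XEN cells and 15 lower, while 17.8% of all genes tested were higher and 32.2% lower. As deposited the balance was opposite to that of the whole table, with a median of 0.07 for the respiratory chain genes and -0.14 for all genes. Past 2-fold there were 2 higher and 3 lower (background 4.73% and 9.17%). The split was 47 and 10 after rescaling (23.6% and 24.7% of all genes) and 28 and 24 with the length trend removed (17.8% and 32.2%). Under all 4 scalings 27 higher and 10 lower held, 28.1% and 10.4% of the respiratory chain genes against 17% and 23.6% of all genes. The largest rises were Cox7b (from 227, 208 and 220 TPM to 438 and 472 TPM, 1.06, SE 0.06, limma adjusted p = 4.90e-11) and Cox7a1 (above). The largest falls were Cox6b2, Cox7a2l and Ndufv3. Cox7a2l, which links complexes III and IV into supercomplexes, had 177, 195 and 141 TPM at 168 h and 66.6 and 71.3 TPM in XEN cells (-1.28, SE 0.15, limma adjusted p = 1.12e-06). A gene with a near-identical transcript held 41.4% of the joint TPM with Cox7a2l at 0 h, 44.4% at 168 h and 73.7% in XEN cells. It had a mean of 136 TPM at 168 h and 194 TPM in XEN cells while Cox7a2l had 171 and 69.0 TPM, so the split of reads between both is uncertain. Ndufv3, an accessory subunit near the flavin site, had 267, 288 and 275 TPM against 123 and 147 TPM (-1.04, SE 0.18, limma adjusted p = 9.81e-05). Of the ATP synthase genes 6 were higher and 0 lower (5 under all 4 scalings), including Atp5a1 (0.78), Atp5md (0.58) and Atp5j (0.50). Of the complex I core genes 4 were higher and 0 lower (3 under all 4 scalings), including Ndufv1 (0.68). Ndufb4 and Ndufb4c were higher by 0.95 and 0.63.

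Against 0 h, 30 genes were higher in XEN cells and 35 lower (35% and 36.2% of all genes tested). Of these, 28 and 26 held under all 4 scalings (29.2% and 27.1%, against 33.2% and 34.8% of all genes). Past 2-fold there were 2 and 5 (18.9% and 18.7%). Ndufs5, an accessory subunit of the intermembrane space side, had 164, 154 and 167 TPM at 0 h and 348 and 383 TPM in XEN cells (1.17, SE 0.12, limma adjusted p = 3.29e-08). Ndufa1 had 274, 330 and 278 TPM against 597 and 609 TPM (1.04, SE 0.11, limma adjusted p = 9.50e-08). Of 8 complex I assembly genes 7 were lower and 0 higher, and 5 of the 7 were lower under all 4 scalings. XEN cells differ from the induced cells in strain, line, medium and absence of Dox, which cannot be told apart from cell type.

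The siRNA experiment asked what the loss of Oct4 does during induction. The targeted gene, Pou5f1, which encodes Oct4, ranged from 782 to 1194 TPM in siCTL and from 282 to 387 TPM in siOct4 libraries, without overlap (-1.52, limma adjusted p = 5.21e-05). In this table only 9 of the respiratory chain genes were present, and the values were compared within that table alone. With Oct4 siRNA 0 of 9 were higher and 0 lower by limma, against 0.942% and 1.72% of the 6264 genes tested, and 0 of 9 had an unadjusted p below 0.05. Blocking on the replicate number, which pairs these libraries, also gave 0 calls. The median of all genes tested was -0.12 as deposited and 0.01 after rescaling. The log2 differences of the 9 genes ran from -0.20 (Cox6b2, SE 0.37) to 0.19 (Ndufaf4, SE 0.16). Cox7a1 had a lowest, median and highest value of 6.22, 20.8 and 69.9 TPM in siCTL and of 12.7, 27.4 and 36.4 TPM in siOct4, so the ranges overlapped widely. These values come from the fit without the replicate block, so spread between pairs counts as error in them. The standard errors there ran from 0.12 (Cox6a1) to 0.48 (Cox7a1). In that fit a change of the size seen in the time course was thus not detectable for some of these genes. This table holds part of the transcriptome, with 274527 to 355895 TPM per library. By its name it lists genes responsive to GATA6. The study counted genes as responsive at an FDR below 0.05 and an absolute log2 fold change above 1 against 0 h at any time. As far as the name tells, both the 9 genes and the background thus come from a list preselected by change during induction. The 7 fibroblast markers in this table summed to between 36.9 and 239 TPM in siCTL and between 39.8 and 245 TPM in siOct4.

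**Figure D5:**
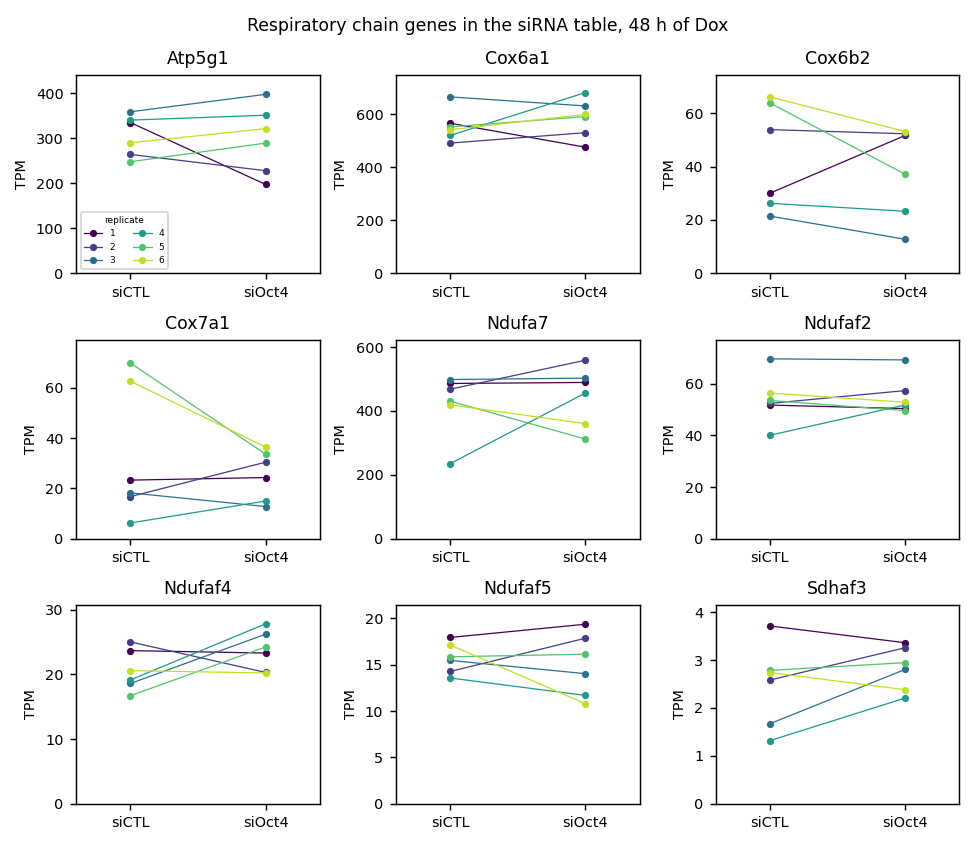
TPM of the 9 respiratory chain genes in the siRNA table in siCTL and siOct4 libraries at 48 h of Dox, with lines joining libraries of the same replicate number and vertical axes starting at 0. Lines run both up and down in most panels, and Ndufa7 in siCTL replicate 4 lies below the other siCTL libraries.

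The wider mitochondrial gene groups gave a background to these changes at 168 h. Beside each count stand the 41.1% of all genes called higher and the 33.9% called lower at that time. Of 34 further assembly factors 11 were higher and 11 lower (32.4% each). For complex IV, Sco2 was higher by 1.58 and Coa3 by 1.00, and Sco1 was lower (-0.63). For complex I, Ecsit (-1.42) and Nubpl (-1.07) were lower, and Tmem126b (0.61) and Timmdc1 (0.35) were higher. Of 14 citric acid cycle genes 6 were higher and 2 lower (42.9% and 14.3%), with Idh2 up by 0.87, Ogdh up by 0.79 and Idh3g down by 0.63. Of 15 tested genes for mitochondrial biogenesis 4 were higher and 10 lower (26.7% and 66.7%). Esrra, a nuclear receptor that drives respiratory genes, rose by 1.54 from 10.8 to 33.3 TPM, and Polg, the mitochondrial DNA polymerase, rose by 1.48. Tfam, which packages mitochondrial DNA, fell by 0.78, Tfb1m by 1.65 and Myc by 3.44. Of 78 mitochondrial ribosomal protein genes 12 were higher and 51 lower (15.4% and 65.4%, median -0.38, beside 0.09 over all genes), so this group leaned lower than the respiratory chain genes as counted, and the difference between the groups was not tested. Cytochrome c, which carries electrons from complex III to IV, has a testis form, Cyct, which had 32.5, 30.4 and 22.3 TPM at 0 h and 0.285 TPM or less at 168 h.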

How the data were processed

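Stranded poly(A) RNA of 35 libraries (23 of the induction series, 12 of the siRNA experiment) was sequenced in pairs. By the study's methods the authors aligned the RNA reads to mm10 with STAR and quantified with RSEM. They left out outliers of a principal component analysis, without saying what these were, and deposited TPM. The submitters' processing notes also name bcl2fastq and cutadapt, with no role given (versions are not given in the sources used here). TPM hold no read counts, so depth and counting error are unknown which leaves count tests out of reach. Of several rows with 1 symbol the highest was kept.

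Values were taken as log2(TPM + 1), so fold changes of low genes are understated. Genes with a group mean of at least 1 TPM entered limma 3.58.1 (R 4.3.3, trended and robust eBayes, groups only, each table apart), with Benjamini-Hochberg adjustment over all genes tested and a threshold of 0.05. Scripts ran in Python 3.11.15 and were tested on simulated data. Scalings were median-of-ratios, removal of a lowess trend (span 0.3) on exonic length (GENCODE M21), and both together, the last added after seeing the data. Other alternatives were a pseudocount of 0.1, no filter, a minimum of 5 TPM, a 2-fold minimum, fits on the compared groups only, a replicate block and leaving out libraries. Near-identical transcripts shared at least 95% identity over 150 bases and 50% of a transcript.

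Named genes were the alternative forms and their partners, the subunit c genes, up to 3 rises and 3 falls per complex at 168 h, genes past 2-fold in any comparison, the 5 with the largest difference between XEN cells and 168 h, the most abundant gene of each complex and all in the siRNA table. Sdhc, the further mitochondrial genes named at the end (Sco1, Tmem126b and Timmdc1 among them), and the comparison of routes over time, were chosen after their values were seen. The genes and lists were chosen with earlier results of these data known. Replicates are separate samples per the labels. Equal replicate numbers in the siRNA table went with correlated deviations (r from 0.236 to 0.707 in 6 pairs) and were taken as pairs. In the induction table they did not (mean r 0.0333).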

Additional observations from a re-analysis of the deposited data

Results flagged for a closer look

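Ndufa7, an accessory subunit of complex I, stood apart in 1 library of the siRNA experiment. Its log2(TPM + 1) was 7.88 in siCTL replicate 4 (235 TPM), while the other siCTL libraries lay between 8.72 and 8.96. The gap to the nearest library was 0.77 of the range of the group, above the limit of 0.625 for 6 libraries. In all 18 sets of 6 libraries were examined in this way, among which chance alone gives about 0.9 such cases. Without this library the difference between siOct4 and siCTL went from 0.09 to -0.07. The same library stood apart in other genes too. Its Gata6 was 198 TPM, against 92.6 to 112 TPM in the other siCTL libraries, and its Cox7a1 was the lowest of the group (6.22 TPM). Whether these differences belong together was not tested.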

How the results depend on the processing

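The numbers of respiratory chain genes called moved most with the threshold and with the spread used. With a 2-fold minimum they were 1, 1, 0, 1, 4 and 9 from 16 h to 168 h, 7 in XEN cells against 0 h and 5 against 168 h. With fits on the compared groups only they were 5 at 16 h, 33 at 24 h and 34 at 72 h. Leaving out 1 library gave 1 to 2 at 16 h, 7 to 16 at 24 h, 27 to 34 at 48 h, 46 to 64 at 72 h, 37 to 43 at 96 h, 58 to 61 at 168 h, 55 to 62 in XEN cells against 0 h, 39 to 45 against 168 h and 0 to 0 in the siRNA table. The count at 16 h was 1 without replicate 2 of 0 h or of 16 h. The count at 24 h was 10 and 7 without replicates 1 and 2 of 0 h, and 8 without replicate 1 or replicate 2 of 24 h. The replicate block gave 2, 17, 37, 53, 45 and 60 from 16 h to 168 h, 65 and 45 for XEN cells and 0 in the siRNA table, where the numbers pair the libraries, and it changed no call there.

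Changes from 0 h to 168 h that turned sign were Cox7a2 (0.19, limma adjusted p = 0.00731), Ndufs7 (0.13, limma adjusted p = 0.0254) and Uqcr11 (0.00) with the length trend removed, so that the first 2, not called as deposited, were called higher, and Ndufa4 (-0.14) and Atp5g3 (-0.05) after median-of-ratios rescaling. In the siRNA table, where nothing was called, rescaling turned Atp5g1 (0.08), Cox7a1 (0.09) and Ndufaf5 (0.06), rescaling with length removal turned Atp5g1 (0.08) and Cox7a1 (0.00), and length removal turned Cox6a1 (-0.03). Leaving out a library or pair there turned the sign of Atp5g1 (range -0.16 to 0.07), Cox6b2 (-0.40 to 0.07), Cox7a1 (-0.41 to 0.25), Ndufa7 (-0.08 to 0.20), Ndufaf2 (-0.04 to 0.12) and Ndufaf5 (-0.16 to 0.02). Of 1129 values of 75 named changes under the alternatives, 1068 kept direction and side of the threshold, 23 lost the call, 10 gained it and 28 turned sign. The cause was not tested. Without read counts, precision at low TPM cannot be stated.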

Other observations

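Ndufb1-ps, which the choice by symbol left out, is listed as Ndufb1 in RefSeq, a complex I subunit. It had 63.0, 65.7 and 71.4 TPM at 0 h and 58.5, 52.7 and 52.1 TPM at 168 h, so the libraries did not overlap.

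Among 12 hypoxia-responsive genes, 5 were higher and 1 lower at 168 h by limma (41.7% and 8.3%, against 41.1% and 33.9% of all genes). The share higher was thus near that of all genes. P4ha1, an enzyme of collagen maturation, went up by 6.28 in log2, and Pdk1, which restrains entry of pyruvate into the citric acid cycle, went down by 2.29. In XEN cells against 168 h, 0 were higher and 8 lower (0% and 66.7%, against 17.8% and 32.2% of all genes).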
